A study of Mus musculus with 6 samples.

Results

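The proteasome genes of BV2 cells were taken as every symbol of the count table that starts with Psm, a letter from a to g and a number. Pseudogenes were left out. The rule gave 46 of 17872 listed genes. Of these, 45 encode proteasome subunits, activators, an inhibitor or assembly chaperones, and the remaining one, Psmc3ip, encodes a recombination factor that only shares the prefix and is given apart. The inducible subunit Psmb10 and the tissue-restricted core subunits Psma8 and Psmb11 were not analysed here.

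BV2 is an immortalised mouse microglial line. RNA was sequenced from 2 groups of 3 libraries, cells labelled Tfam knockout by CRISPR-Cas9 and wild-type (WT) cells. The labels' protocols state culture in puromycin at 2 µg/mL after editing, and the same text is attached to both groups. Clonal or pooled origin of the edited cells, any control construct in WT cells and the source of each replicate are not stated. The p-values therefore reflect variation among these 6 libraries only, which may be technical. The comparison asks how loss of Tfam, which packages mitochondrial DNA and starts its transcription, alters the transcriptome of a microglial line.

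The proteasome degrades proteins that carry ubiquitin chains. Its 20S core is a barrel of alpha rings, which form the gate, and beta rings, which hold the catalytic sites of Psmb5, Psmb6 and Psmb7. The 19S cap binds ubiquitin chains, unfolds the substrate with a ring of Psmc ATPases and feeds it into the core. In immune cells interferons induce Psmb8, Psmb9 and Psmb10, which replace Psmb5, Psmb6 and Psmb7 to form the immunoproteasome, and the ring activator PA28, made of Psme1 and Psme2. These are known for shaping the peptides that major histocompatibility class I molecules present, and microglia raise them in inflammation.

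Library totals were between 13850691 and 20889786 counts in the labelled knockout libraries and between 14642397 and 28418133 in WT libraries. Levels are in CPM (counts scaled to a common depth with TMM factors). The targeted transcript, Tfam, was not reduced in libraries carrying the knockout label (41.0, 42.7 and 43.2 CPM in the labelled knockout libraries, against 39.0, 38.5 and 37.1 CPM in WT libraries; log2 fold change 0.14 ± 0.0869 (SE), adjusted p = 0.193, edgeR's quasi-likelihood test). It was called higher with library totals (log2 0.24, adjusted p = 0.0403, edgeR) and with the authors' log2 table, which is also scaled by totals (log2 0.24, adjusted p = 0.0349, limma). Tfam mRNA therefore does not show the knockout, and every direction below is that of the libraries so labelled against WT. Genes of the mitochondrial genome took between 1.37% and 1.42% of counts in the labelled knockout libraries and between 3.52% and 4.31% in WT libraries. Of 12 listed microglia and macrophage markers, 10 were in the table and 8 were tested, of which 6 were called lower and 0 higher (22.9% and 21.3% of all genes). Their summed level was between 1807 and 1991 CPM in the labelled knockout libraries and between 2550.4 and 2931 CPM in WT libraries, and Cx3cr1, Tmem119 and Sall1, markers of brain microglia, were below 2 CPM in the mean of either group. The lists for astrocytes, neurons, oligodendrocytes, endothelial cells, lymphocytes and fibroblasts had 4 markers each. In the table were 4 for oligodendrocytes, 3 each for neurons and endothelial cells and 2 for lymphocytes. Astrocytes and fibroblasts had 1 each, so their sums rest on a single gene. Each of these lists summed to at most 25.5 CPM in any library. Of these, sums were lower in the labelled knockout libraries for oligodendrocytes (11.9 to 14.1 CPM, against 24.0 to 25.5 CPM in WT libraries), endothelial cells (6.66 to 8.22 CPM, against 10.9 to 11.4 CPM in WT libraries) and fibroblasts (0.24 to 0.57 CPM, against 1.42 to 2.55 CPM in WT libraries), each with 1 marker called lower. Labelled knockout replicate 2 was the lowest of its group for 38 of the 45 proteasome genes. The part of these differences in the results below was not tested, and in bulk RNA fewer cells expressing a gene and less RNA per cell cannot be told apart.

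The upstream sequences of the immunoproteasome genes are shown because their members differed in direction although some are close neighbours. RefSeq promoters (GRCm38.p6, another build than the GRCm39 of the counts) were matched by symbol for 38 of the 45 genes. Each line gives bases before the annotated start, 5′ to 3′, on the strand of the gene. Capitals mark a match to the interferon gamma-activated site (GAS, TTCNNNGAA) on either strand. The first is chr17:34197945-34198194, plus strand. The second is the whole interval of 225 bases between the divergent starts of Psmb9 and the peptide transporter gene Tap1 (chr17:34187331-34187555, minus strand). The third is chr14:55578244-55578493, plus strand, and the fourth is chr14:55591022-55591271, minus strand, the first of the starts listed for Psme2.
Psmb8: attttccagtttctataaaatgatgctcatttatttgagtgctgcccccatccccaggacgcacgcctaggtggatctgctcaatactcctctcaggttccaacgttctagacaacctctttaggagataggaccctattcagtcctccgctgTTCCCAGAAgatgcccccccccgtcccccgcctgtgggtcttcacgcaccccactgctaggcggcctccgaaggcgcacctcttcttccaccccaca
Psmb9: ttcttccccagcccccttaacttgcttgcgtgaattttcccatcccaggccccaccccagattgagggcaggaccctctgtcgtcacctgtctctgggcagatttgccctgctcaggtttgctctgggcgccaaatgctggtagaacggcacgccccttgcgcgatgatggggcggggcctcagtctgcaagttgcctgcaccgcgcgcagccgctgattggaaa
Psme1: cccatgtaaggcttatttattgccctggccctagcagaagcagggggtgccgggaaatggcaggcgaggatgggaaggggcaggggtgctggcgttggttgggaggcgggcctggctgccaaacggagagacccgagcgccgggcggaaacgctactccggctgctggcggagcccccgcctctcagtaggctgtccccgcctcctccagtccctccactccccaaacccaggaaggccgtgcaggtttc
Psme2: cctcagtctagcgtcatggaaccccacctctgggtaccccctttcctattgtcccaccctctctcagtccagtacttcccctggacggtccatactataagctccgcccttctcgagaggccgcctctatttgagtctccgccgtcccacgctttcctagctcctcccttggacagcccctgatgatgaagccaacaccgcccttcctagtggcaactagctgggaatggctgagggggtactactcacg
A GAS match stands in the Psmb8 stretch and in none of the other 3. None of the 4 holds the core of the interferon-stimulated response element (ISRE, GAAA, any 2 bases and GAAA again) or of the antioxidant response element (ARE, TGACNNNGC), searched on both strands. Over all RefSeq promoters searched, the 250 bases before the start held a GAS match in 7.02%, an ISRE core in 2.98% and an ARE core in 10.2%. A match describes letters only.

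Proteasome mRNAs were altered in both directions in the labelled knockout libraries, by small amounts. All 45 genes passed the filter on low counts. At an adjusted p below 0.05, 15 rose and 6 fell, so that 21 of 45 (46.7%) were called, against 44.2% of the 13403 genes tested (21.3% higher and 22.9% lower). With both directions pooled, this share was near the background. By direction, 15 members rose and 6 fell, whereas slightly more of all genes were lower than higher. Whether that split differs from that of all genes was not tested. The median log2 fold change was 0.07, against 0.00 over all tested genes; it was 0.17 with library totals (all genes 0.10) and lay between 0.052 and 0.13 when a library was left out. Only Psma7 and the weakly expressed Psmg3 differed by 1.5-fold or more, and Psmg3 did not pass. Libraries of the groups did not overlap for 25 of the 45 (17 higher and 8 lower), against 52.9% of tested genes (26.3% higher and 26.6% lower). With library totals in place of TMM factors, a scaling that shifts the median gene upwards by 0.10 (log2), 20 rose and 2 fell (over all genes 3834, or 28.6%, were higher and 2372, or 17.7%, lower, against 2859 and 3067 with TMM factors). With transcript length and GC content as offsets, 23 rose and 4 fell (25.3% and 22.3% of all genes). Single libraries mattered too: 10 rose and 2 fell without WT replicate 2 (35.6% of all genes called), 10 and 3 without labelled knockout replicate 3 (36%), and 15 and 3 without labelled knockout replicate 2 (39.5%). Of the 21 calls, 10 were made under every alternative tried: Psma3, Psma6, Psmb8, Psme2, Psmc1, Psmc2, Psmd1, Psmd5 and Psmd10 as higher, and Psma7 as lower.

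**Figure D1:**
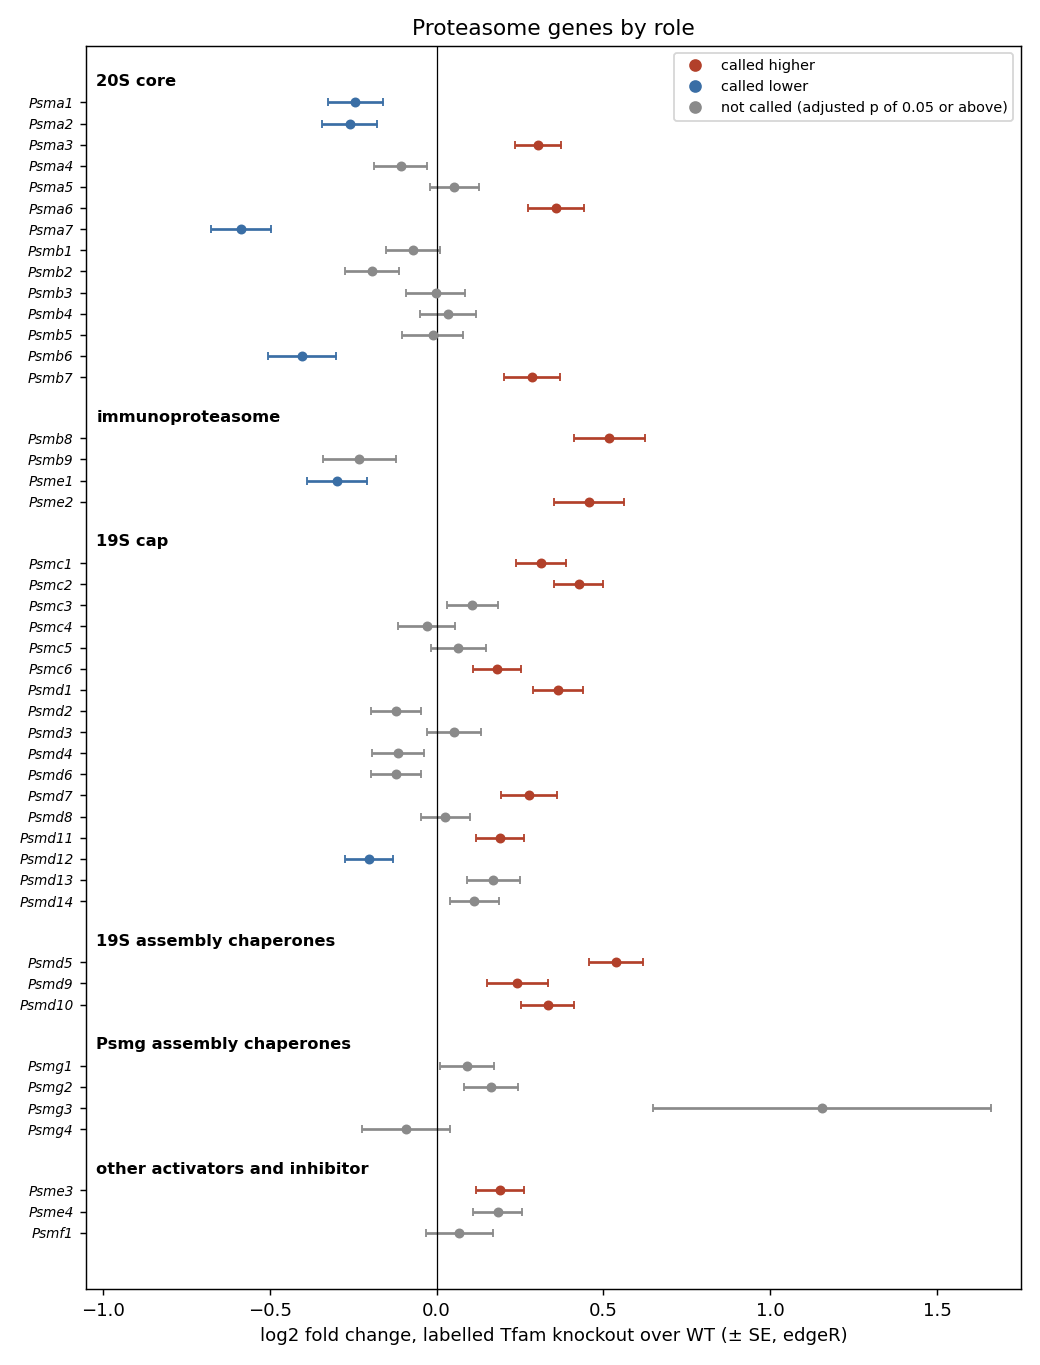
Log2 fold change (x axis, labelled Tfam knockout over WT) of each of 45 proteasome genes, grouped by role. Bars are 1 SE, derived from edgeR's F statistic. Red points were called higher, blue points lower and grey points were not called; the 3 measured assembly chaperones of the 19S cap lie to the right of 0, while the 20S core has called members on both sides.

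The immunoproteasome genes did not move as a unit. Of the 4 measured, Psmb8 and Psme2 rose, Psme1 fell and Psmb9 was not called, where 21.3% of all genes were higher and 22.9% lower. The median log2 fold change of the 4 was 0.11 (all genes 0.00). It lay between 0.052 and 0.19 when a library was left out and was 0.26 with the offsets (all genes 0.03). Psmb8, the inducible chymotrypsin-like subunit, had 27.9, 24.4 and 24.7 CPM in the labelled knockout libraries, against 18.4, 18.5 and 16.8 CPM in WT libraries. Every labelled knockout library lay above every WT library, a rise of 1.43-fold (log2 0.52 ± 0.106, adjusted p = 0.000778, edgeR). Psmb8 shares exon sequence with the antisense gene Gm20496 on the opposite strand. Psmb9, the inducible subunit that takes the place of Psmb6, had 22.4, 18.6 and 21.1 CPM in the labelled knockout libraries, against 23.0, 23.8 and 26.5 CPM in WT libraries. These groups did not overlap either, with the labelled knockout libraries below, but the difference was not called (log2 -0.23 ± 0.110, adjusted p = 0.098, edgeR).

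Psme2, the beta subunit of PA28, had 65.1, 54.2 and 63.3 CPM in the labelled knockout libraries, against 38.3, 49.7 and 45.6 CPM in WT libraries, so that the groups were apart and it rose 1.37-fold (log2 0.46 ± 0.104, adjusted p = 0.00176, edgeR). Its ring partner Psme1, the alpha subunit, had 84.2, 72.7 and 78.6 CPM in the labelled knockout libraries, against 86.3, 109 and 95.2 CPM in WT libraries. Here the labelled knockout libraries were the lower ones, and the gene fell by 0.30 ± 0.0897 on the log2 scale (adjusted p = 0.012, edgeR). The Psme1 call was lost without WT replicate 2, adjusted p = 0.11, and also with library totals (adjusted p = 0.0675), with the authors' log2 table (adjusted p = 0.0669) and with length and GC offsets (log2 fold change -0.13, adjusted p = 0.148). The 82.5% of the Psme2 transcript that has a near-identical copy in Psme2b makes its counts uncertain, and Psme1 shares exon sequence with Emc9 on the opposite strand.

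Psmb9 and Tap1 start from the interval printed above, 211 bases apart in the GENCODE annotation and on opposite strands. Tap1, which carries peptides into the endoplasmic reticulum, had 107, 106 and 108 CPM in the labelled knockout libraries, against 64.0, 63.7 and 68.5 CPM in WT libraries. The groups were far apart, and Tap1 rose 1.63-fold (adjusted p = 5.74e-07, edgeR) beside a Psmb9 level that was lower in each labelled knockout library. No test of the difference between the 2 genes was run. Some of their exons overlap on opposite strands, and the library kit does not mark strand, so reads in the overlap could not be assigned by strand.

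**Figure D2:**
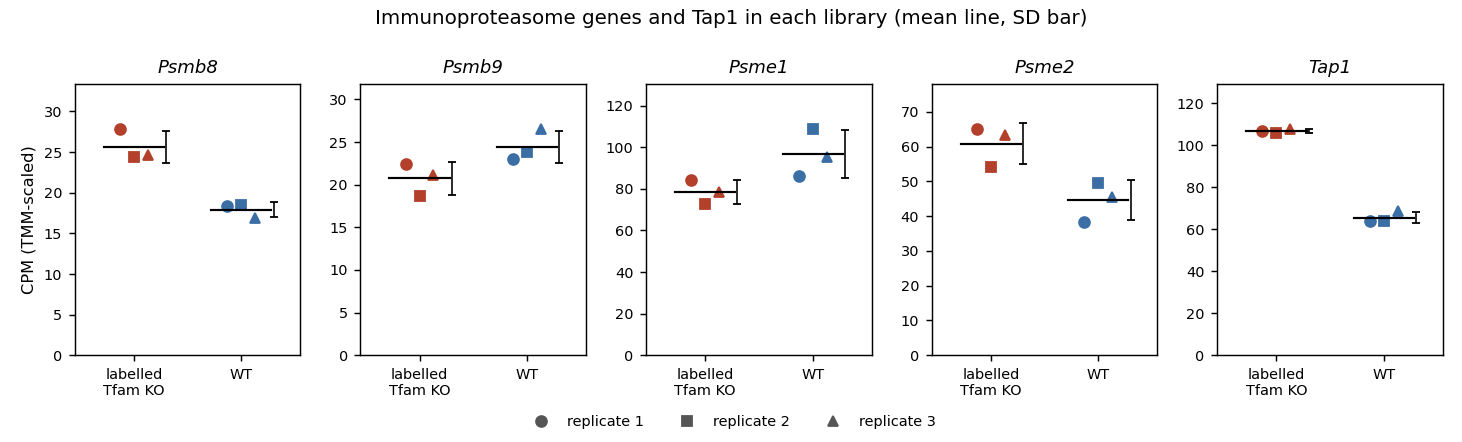
TMM-scaled CPM (y axis, from 0) of Psmb8, Psmb9, Psme1, Psme2 and the Psmb9 neighbour Tap1 in each library, labelled Tfam knockout in red on the left and WT in blue on the right, with the mean as a line and the SD as a bar (n = 3 each). Psmb8, Psme2 and Tap1 are higher and Psmb9 and Psme1 lower in every labelled knockout library.

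Levels of inducible subunits were set against the subunits they replace, as ratios of counts per kb of transcript within a library. The Psmb8 to Psmb5 ratio was 0.110, 0.128 and 0.109 in the labelled knockout libraries and 0.0875, 0.0790 and 0.0727 in WT libraries. The groups did not overlap, and the mean log2 ratio was 0.54 higher in the labelled knockout libraries. Psmb5 has near-identical copies over 88.4% of its transcript, so its counts and this ratio are uncertain. The Psmb9 to Psmb6 ratio was 0.0263, 0.0263 and 0.0260 in the labelled knockout libraries and 0.0263, 0.0210 and 0.0234 in WT libraries. Here WT replicate 1 reached the labelled knockout range, and the mean log2 ratio differed by 0.16. Psmb9 and Psmb6 were each lower in every labelled knockout library. The Psme2 to Psme1 ratio was 0.894, 0.863 and 0.932 in the labelled knockout libraries and 0.514, 0.528 and 0.555 in WT libraries. The PA28 mRNAs were thus nearer to parity per kb in the labelled knockout libraries, by 0.75 on the log2 scale. Exact two-sided permutation tests gave p = 0.1, 0.2 and 0.1 in this order (0.15, 0.2 and 0.15 adjusted over the 3 ratios, n = 3 each), and 3 against 3 libraries cannot go below 0.1. Per kb, constitutive subunits stayed far above inducible ones in both groups: Psmb5 had 137 ± 19.1 CPM per kb in the labelled knockout libraries and 139 ± 8.33 in WT libraries, while Psmb8 had 15.7 ± 1.19 CPM per kb in the labelled knockout libraries and 11.002 ± 0.570 in WT libraries (mean ± SD, n = 3 each).

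**Figure D3:**
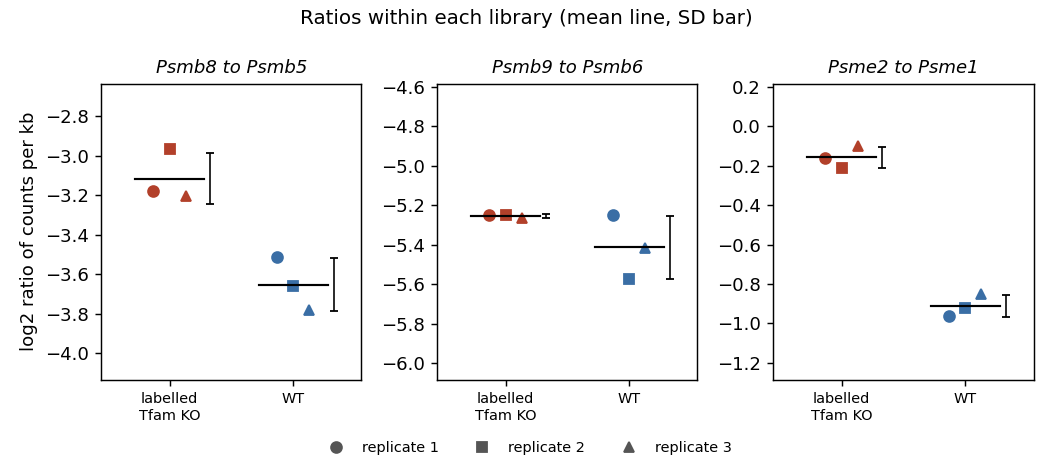
Log2 ratio of counts per kb of transcript (y axis, each panel spanning the same range of 1.5) within each library, labelled Tfam knockout on the left and WT on the right, with the mean as a line and the SD as a bar (n = 3 each). The Psmb8 to Psmb5 and Psme2 to Psme1 ratios are higher in all labelled knockout libraries, and the Psmb9 to Psmb6 ratios overlap.

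In the 20S core, 3 of 14 subunits rose, 4 fell and 7 did not pass, near the background of 21.3% higher and 22.9% lower. The median log2 fold change was -0.04 (all genes 0.00). It became 0.06 with library totals (all genes 0.10), 0.05 with the authors' log2 table (0.09) and 0.03 with length and GC offsets (0.03). All genes thus shifted upwards in these settings too. Left-out libraries moved the core median between -0.13 and 0.042, and no direction is given for the core as a group. Without labelled knockout replicate 2 or 3, or WT replicate 2, 2 fell in place of 4 (20.8%, 19% and 18.2% of all genes were lower in these fits). Its summed level was 3076, 2575 and 2846 CPM in the labelled knockout libraries and 2844, 3225 and 3102 CPM in WT libraries, and these ranges overlap. Psma7, an alpha-ring subunit, had 218, 173 and 206 CPM in the labelled knockout libraries, against 272, 312 and 313 CPM in WT libraries. It fell by 0.59 ± 0.0905 on the log2 scale (adjusted p = 5.24e-05, edgeR), the largest fall among the 45, and the groups were well apart. Psmb6, the constitutive caspase-like subunit and the most abundant core mRNA per kb, had 505, 419 and 481 CPM in the labelled knockout libraries, against 517, 670.0 and 671 CPM in WT libraries. Labelled knockout replicate 1 and WT replicate 1 lay close together. Psmb6 fell by 0.40 ± 0.102 (adjusted p = 0.00402, edgeR), a call lost with length and GC offsets (log2 fold change -0.15, adjusted p = 0.0962).

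The alpha subunits Psma1 (-0.24) and Psma2 (-0.26) fell too. Psma1 had 208, 174 and 181 CPM in the labelled knockout libraries, against 213, 239 and 214 CPM in WT libraries, and Psma2 had 149.5, 128 and 139 CPM in the labelled knockout libraries, against 150.1, 178 and 171 CPM in WT libraries. In each, the highest labelled knockout library was just below the lowest WT library. Calls were lost for Psma1 (without labelled knockout replicate 2 or 3 or WT replicate 2, adjusted p up to 0.137) and Psma2 (without labelled knockout replicate 2 or 3 or WT replicate 2 or 3, adjusted p up to 0.103), and for both with library totals (adjusted p = 0.143 and 0.105) or the authors' log2 table (0.126 and 0.0984).

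Other alpha-ring members rose. Psma3 had 152, 152 and 157 CPM in the labelled knockout libraries, against 125, 130.2 and 118 CPM in WT libraries, a rise of 1.23-fold (adjusted p = 0.00195, edgeR). Psma6 had 258, 209 and 228 CPM in the labelled knockout libraries, against 183, 192 and 168 CPM in WT libraries, and rose 1.28-fold (adjusted p = 0.00231, edgeR). Both sets of libraries were separate. Psmb7, the trypsin-like catalytic subunit, had 214, 175 and 198 CPM in the labelled knockout libraries, against 173, 158 and 149.7 CPM in WT libraries. The gap between the groups was narrow there, and the rise of 1.22-fold (adjusted p = 0.0107, edgeR) did not hold without labelled knockout replicate 1 or WT replicate 3, adjusted p up to 0.0627. The catalytic subunit Psmb5 was not called (log2 -0.01 ± 0.0915, adjusted p = 0.932), but with length and GC offsets, where the Psmb6 call was lost, it was called higher (log2 0.23, adjusted p = 0.00861). An approximate 95% interval of the Psmb5 log2 fold change was -0.19 to 0.17. It used normal quantiles and an SE derived from edgeR's F statistic, so it is somewhat too narrow.

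The remaining core subunits Psma4, Psma5, Psmb1, Psmb2, Psmb3 and Psmb4 had log2 fold changes between -0.19 (Psmb2) and 0.05 (Psma5), and none was called. Their groups overlapped in every case. Psmb2 was nearest to a call (adjusted p = 0.0642, edgeR); it was called lower with a filter at 5 CPM and without WT replicate 1 (adjusted p = 0.0174). Psmb3 was called higher with length and GC offsets (log2 0.20, adjusted p = 0.014), against -0.00 without them. Although each core subunit occurs in equal number in the particle, the mRNA level per kb in WT libraries ran from 43.7 CPM per kb for Psma3 to 776 for Psmb6, a 17.8-fold range over the 14 subunits. Lengths are those of GENCODE's principal transcripts, which may not be the forms BV2 cells make.

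**Figure D4:**
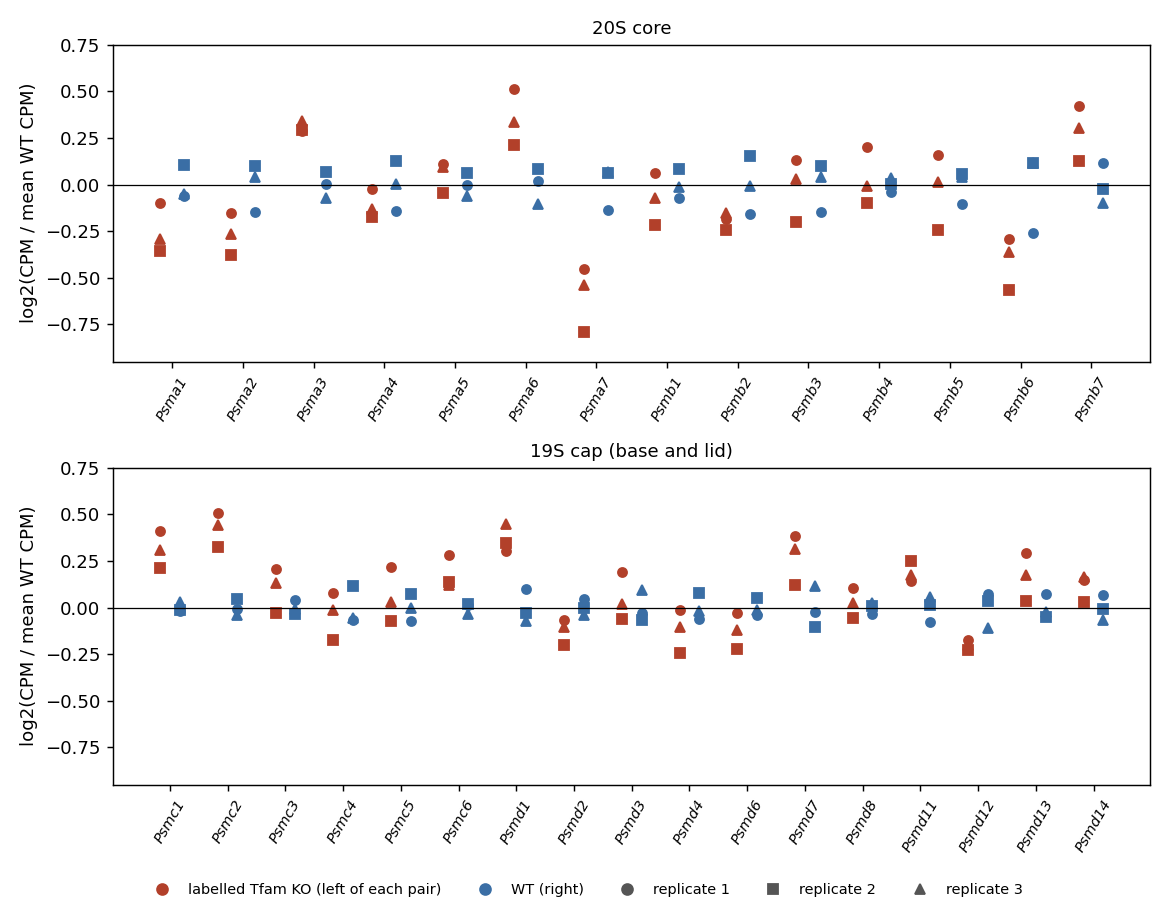
Log2 of CPM over the mean WT CPM of the gene (y axis) for each subunit of the 20S core (top) and 19S cap (bottom), with labelled Tfam knockout libraries in red on the left of each pair and WT libraries in blue on the right; marker shapes give the replicate. Psma7 lies lowest and Psma6 and Psmc2 reach the highest values, and labelled knockout replicate 2 is often the lowest of its group.

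The 19S cap had 6 of 17 members that rose, 1 that fell and 10 that were not called, against 21.3% and 22.9% of all genes. With library totals, the authors' log2 table or the offsets, 9 rose, where 28.6%, 28.8% and 25.3% of all genes were higher. The median log2 fold change of the cap was 0.11 (all genes 0.00). It became 0.21 with library totals (all genes 0.10), 0.20 with the authors' log2 table (0.09) and 0.17 with the offsets (0.03). When a library was left out it lay between 0.053 and 0.15. The cap median was above that of all genes in each of these fits. Among the 6 ATPases of the cap's base, 3 rose and none fell, with a median of 0.14. Psmc2 had 223, 197 and 214 CPM in the labelled knockout libraries, against 156, 162 and 153 CPM in WT libraries, and rose 1.34-fold (adjusted p = 0.000149, edgeR). Psmc1 had 379.6, 331 and 353 CPM in the labelled knockout libraries, against 282, 283 and 291 CPM in WT libraries, and rose 1.24-fold (adjusted p = 0.0028, edgeR). The groups did not overlap for either. Psmc6 (0.18) passed narrowly (adjusted p = 0.0494, edgeR), and its call was lost without labelled knockout replicate 1 or 3 or WT replicate 1, 2 or 3, adjusted p up to 0.167, and also with DESeq2, limma-voom or no filter. The ATPases Psmc3 (0.11), Psmc4 (-0.03) and Psmc5 (0.07) did not pass, although Psmc3 was called higher with library totals (log2 0.21, adjusted p = 0.0373), the authors' log2 table (adjusted p = 0.0355) and the offsets (adjusted p = 0.0056). Psmc1 has a near-identical copy over 82% of its transcript, so its counts are uncertain. The summed ATPase level was 1075 ± 77.9 CPM in the labelled knockout libraries and 919.7 ± 12.041 CPM in WT libraries (mean ± SD, n = 3 each).

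Of the 11 non-ATPase subunits 3 rose and 1 fell, with a median of 0.05, where 21.3% of all genes were higher and 22.9% lower. Psmd1, a large scaffold of the base, had 144, 148 and 159 CPM in the labelled knockout libraries, against 125, 114 and 111 CPM in WT libraries. All labelled knockout libraries were higher, and it rose 1.29-fold (adjusted p = 0.000738, edgeR). The lid subunits Psmd7 (0.28) and Psmd11 (0.19) rose as well (adjusted p = 0.0117 and 0.0403, edgeR), without overlap between the groups. The Psmd7 call was lost without labelled knockout replicate 3 or WT replicate 2, adjusted p up to 0.0576. That of Psmd11 was lost without labelled knockout replicate 2 or 3 or WT replicate 1 or 2, adjusted p up to 0.105. The lid subunit Psmd12 had 112, 108 and 109.7 CPM in the labelled knockout libraries, against 133, 129 and 117 CPM in WT libraries. It was lower in each labelled knockout library (-0.20, adjusted p = 0.0319, edgeR), a call lost without labelled knockout replicate 2 or 3 or WT replicate 1 or 2, adjusted p up to 0.149, and also with library totals, the authors' log2 table or no filter. Psmd2, the other scaffold of the base, was also lower in each labelled knockout library but did not pass (log2 -0.12 ± 0.0750, adjusted p = 0.203). The lid deubiquitinase Psmd14 (0.11) and the ubiquitin receptor Psmd4 (-0.12) did not pass, nor did Psmd3, Psmd6, Psmd8 and Psmd13. Psmd13 was called higher with library totals (log2 0.27, adjusted p = 0.0129), the authors' log2 table, the offsets and without labelled knockout replicate 2. Psmd14 was called higher with library totals (adjusted p = 0.0313) and the authors' log2 table, and Psmd3 with the offsets (adjusted p = 0.0202). Without WT replicate 2 or labelled knockout replicate 3, 3 cap members rose in place of 6 (17.4% and 17.1% of all genes were higher in these fits).

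The 3 measured chaperones of the 19S base with Psm symbols rose, where 21.3% of all genes were higher. The median log2 fold change of these chaperones was 0.33. Psmd5 had 92.5, 85.1 and 83.9 CPM in the labelled knockout libraries, against 64.7, 58.9 and 56.1 CPM in WT libraries. It rose 1.45-fold (adjusted p = 4.13e-05, edgeR), the largest called change upwards among the 45, with a wide gap between the groups. Psmd10, also known as gankyrin, had 105, 99.8 and 106 CPM in the labelled knockout libraries, against 76.2, 91.5 and 79.9 CPM in WT libraries. It too was higher in each labelled knockout library and rose 1.26-fold (adjusted p = 0.00277, edgeR). Psmd9 had 50.9, 42.8 and 47.4 CPM in the labelled knockout libraries, against 40.1, 39.4 and 40.0 CPM in WT libraries, and rose 1.18-fold (adjusted p = 0.0405, edgeR). The Psmd9 groups were close, and the call was lost without labelled knockout replicate 1 or 3 or WT replicate 1, 2 or 3, adjusted p up to 0.145.

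The Psmg chaperones, which build the alpha ring of the core in pairs, gave 0 calls with edgeR, DESeq2 or limma-voom (which called 44.2%, 42.6% and 43.8% of all genes), and 1 of the 4 had an unadjusted p below 0.05 in edgeR. Their median log2 fold change was 0.13 (0.23 with library totals, where that of all genes was 0.10). Psmg1 (0.09), Psmg2 (0.16) and Psmg4 (-0.09) overlapped between the groups. Psmg3 was hardly detected, with 18, 23 and 9 raw counts in the labelled knockout libraries and 16, 7 and 2 in WT libraries. Its CPM was higher in each labelled knockout library, but the estimate was wide (log2 1.16 ± 0.507, adjusted p = 0.0741, edgeR). With length and GC offsets Psmg1, Psmg2 and Psmg3 were called higher (25.3% of all genes), and with library totals Psmg2 was (28.6% of all genes).

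Among the other activators, Psme3, which forms the nuclear PA28 gamma ring, had 151, 142 and 149 CPM in the labelled knockout libraries, against 137, 128 and 123 CPM in WT libraries. It was called higher (0.19, adjusted p = 0.0398, edgeR) with separate groups, a call lost without labelled knockout replicate 1 or 3 or WT replicate 2 or 3, adjusted p up to 0.148. Psme4, the PA200 activator, had 85.2, 92.3 and 94.4 CPM in the labelled knockout libraries, against 82.1, 78.0 and 79.0 CPM in WT libraries. Its groups were separate too, yet it did not pass (log2 0.18 ± 0.0741, adjusted p = 0.0544); it was called higher with library totals, with the authors' log2 table, and without WT replicate 1 or labelled knockout replicate 1. The inhibitor Psmf1, also called PI31, overlapped between the groups (0.07). Psmc3ip, the recombination factor outside the proteasome, had 25.1, 21.8 and 23.2 CPM in the labelled knockout libraries, against 11.6, 10.4 and 8.99 CPM in WT libraries, and rose 2.24-fold (adjusted p = 1.05e-06, edgeR).

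The 45 genes lie on 16 chromosomes, so most are not neighbours. Psmb8 and Psmb9 start 9957 bases apart on chromosome 17, and Psme1 and Psme2 start 12990 bases apart on chromosome 14, on opposite strands in each case. The 6 members called lower had a median transcript length of 1157 bases, against 1785 bases for the 15 called higher, 1342 bases for the 24 not called and 2738 bases for all tested genes; the part of length in the calls was not tested beyond the offsets. Near-identical copies, at 95% identity over at least 100 bases in other transcripts, were found for 9 members, of which 4 were called higher (Psma3, Psme2, Psmc1 and Psmd11) and none lower. The largest shares of a transcript with a copy were 98.2% for Psmd2 and 88.4% for Psmb5. Copies listed in the count table held fewer reads than the members. Over the 6 libraries Gm8394 and Gm12989 had 670 and 846 counts, against 11349 for Psma5, and Gm5422 had 374 against 47234 for Psmd2. Settings for multi-mapping reads are not stated, so counts of members with copies are uncertain. For 13 members an exon overlaps an exon of another gene. Among them are Psmb7, Psmb8, Psmd1 and Psmd9, called higher, and Psme1, called lower. The kit does not mark strand, so the counts of such members are uncertain.

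Genes that work with the proteasome were counted from lists of partners. Of 12 partners with other symbols, 3 rose and 5 fell (median log2 fold change -0.07), where 21.3% of all genes were higher and 22.9% lower. Pomp, the maturation factor of the core, had 99.1, 75.6 and 87.1 CPM in the labelled knockout libraries, against 101, 139 and 131 CPM in WT libraries. It fell by 0.50 ± 0.112 on the log2 scale (adjusted p = 0.00159, edgeR), although labelled knockout replicate 1 and WT replicate 1 nearly met. Sem1, a small lid subunit, had 68.0, 54.978 and 64.1 CPM in the labelled knockout libraries, against 77.8, 109 and 117 CPM in WT libraries, and fell by 0.69 ± 0.121 (adjusted p = 0.000193, edgeR) with separate groups. Akirin2, an adaptor for import of proteasomes into the nucleus, rose 1.38-fold (adjusted p = 0.00311), and Fbxo7, a partner of the inhibitor Psmf1, rose 1.46-fold (adjusted p = 0.00179).

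Ubiquitin receptors and shuttles were called higher for 5 of 9 and lower for 0 (median log2 fold change 0.23), beside 21.3% and 22.9% of all genes. Sqstm1, which links ubiquitinated cargo to autophagy and is induced in oxidative stress, had 2129.9, 2111 and 2062 CPM in the labelled knockout libraries, against 633, 612 and 587 CPM in WT libraries. The labelled knockout libraries were several-fold higher, a rise of 3.44-fold (log2 1.78 ± 0.0832, adjusted p = 2.96e-11, edgeR). The shuttle Rad23b, which carries ubiquitinated proteins to the cap, had 176, 177 and 177 CPM in the labelled knockout libraries, against 141, 139 and 142 CPM in WT libraries. Its replicates were close and it rose 1.254-fold (adjusted p = 0.000744, edgeR). Tollip (0.25), an adaptor that binds ubiquitin, rose too (adjusted p = 0.00703, edgeR).

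In the list for the p97 unfoldase and ubiquitin supply, 4 of 11 tested genes rose and 1 fell (median log2 fold change 0.03; all genes 21.3% and 22.9%). The unfoldase Vcp, which extracts ubiquitinated proteins from membranes and complexes, averaged 100.3 ± 3.36 CPM in the labelled knockout libraries and 74.0 ± 10.9 CPM in WT libraries (SD, n = 3 each; 1.35-fold, adjusted p = 0.00106, edgeR). Its cofactors Faf1 (0.42) and Nploc4 (0.28) rose, with the Nploc4 call lost without labelled knockout replicate 3, adjusted p = 0.0524.

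Of 11 transcription factors or cofactors of proteasome genes, 5 rose and 1 fell (median log2 fold change 0.18; all genes 21.3% and 22.9%). Nfe2l1, which raises proteasome subunit genes when proteasome activity is low, had 341, 330.3 and 342 CPM in the labelled knockout libraries, against 167, 156 and 147 CPM in WT libraries. The groups were far apart, and it rose 2.15-fold (log2 1.11 ± 0.0744, adjusted p = 3.26e-09, edgeR). The related antioxidant factor Nfe2l2 differed little (1.13-fold, adjusted p = 0.0363, edgeR), and its call was lost without labelled knockout replicate 2 or 3 or WT replicate 1, 2 or 3, adjusted p up to 0.135. Irf1, an interferon-induced activator of the immunoproteasome genes, had 32.955, 34.9 and 30.7 CPM in the labelled knockout libraries, against 18.1, 18.1 and 21.7 CPM in WT libraries, and rose 1.71-fold (adjusted p = 1.64e-05, edgeR). Its groups were apart. Nlrc5, a class I transactivator, overlapped and did not pass (log2 -0.11 ± 0.0886, adjusted p = 0.336). Rfx5, its DNA-binding partner, rose 1.54-fold (adjusted p = 0.0124, edgeR), a call lost without labelled knockout replicate 2 or WT replicate 2, adjusted p up to 0.09. In the list around the immunoproteasome, 3 of 4 rose (median log2 fold change 0.50, with 21.3% of all genes higher): Tap1, the trimming peptidase Erap1 (0.60) and the loading factor Tapbp (0.40).

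**Figure D5:**
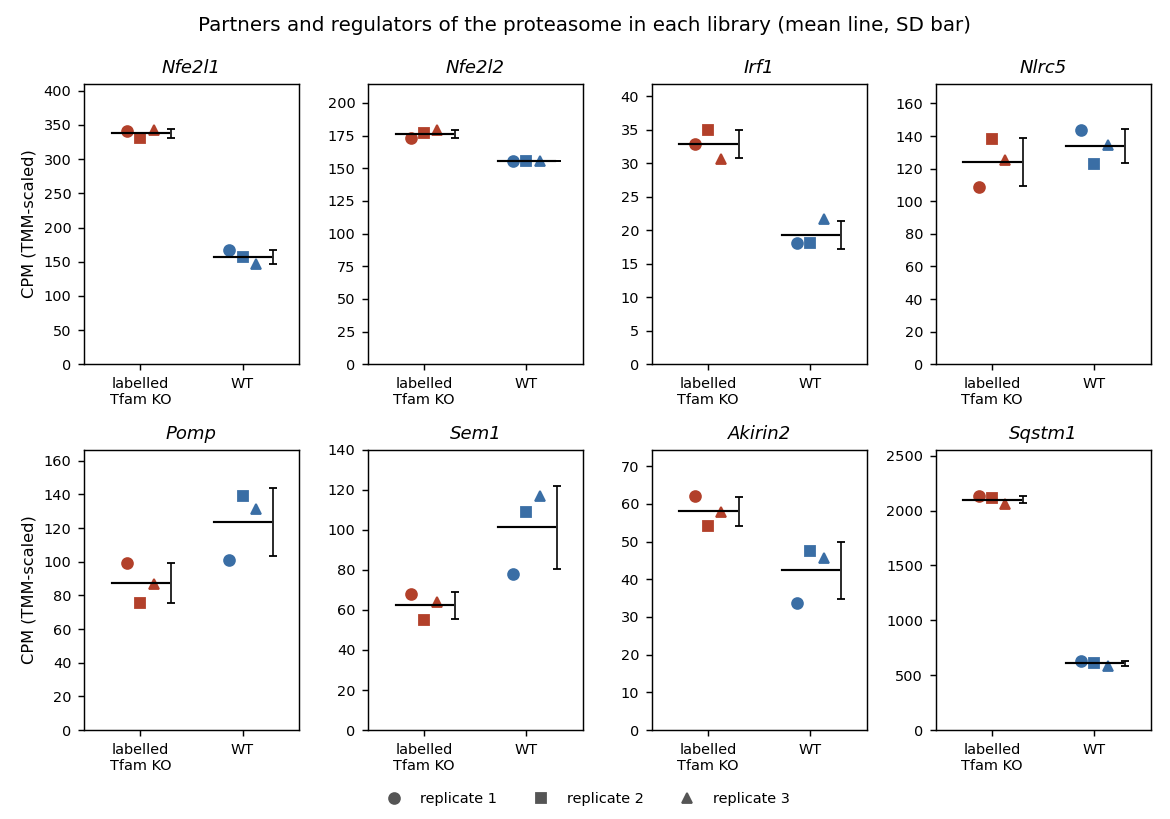
TMM-scaled CPM (y axis, from 0) of 4 transcription factors or cofactors and 4 partners of the proteasome in each library, labelled Tfam knockout on the left and WT on the right, with the mean as a line and the SD as a bar (n = 3 each). Nfe2l1 and Sqstm1 show the widest gaps, Pomp and Sem1 are lower in the labelled knockout libraries, and the Nlrc5 libraries overlap.

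Nfe2l1 and Nfe2l2 bind antioxidant response elements, so ARE cores were sought in the 250 bases before the start of each matched member. They stood in 5 of 41 promoters (12.2%, against 10.2% of all promoters), those of Psmb5, Psmb6, Psmc6, Psmd9 and Psmd12. Of these genes Psmc6 and Psmd9 were called higher, Psmb6 and Psmd12 lower and Psmb5 not called. The stretches of the catalytic subunits Psmb5 (chr14:54617996-54618245, minus strand) and Psmb6 (chr11:70525107-70525356, plus strand) are shown with the match in capitals.
Psmb5: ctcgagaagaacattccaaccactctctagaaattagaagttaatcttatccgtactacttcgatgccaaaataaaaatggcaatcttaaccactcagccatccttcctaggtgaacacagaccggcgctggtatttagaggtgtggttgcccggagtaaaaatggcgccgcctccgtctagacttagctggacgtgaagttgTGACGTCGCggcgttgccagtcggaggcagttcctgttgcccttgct
Psmb6: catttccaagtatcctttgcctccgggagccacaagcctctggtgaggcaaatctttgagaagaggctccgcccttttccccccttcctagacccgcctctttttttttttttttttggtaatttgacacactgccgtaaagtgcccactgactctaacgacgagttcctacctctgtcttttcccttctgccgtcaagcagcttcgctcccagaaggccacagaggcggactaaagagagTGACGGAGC
The members whose rise held under every alternative, Psma3, Psma6, Psmb8, Psme2, Psmc1, Psmc2, Psmd1, Psmd5 and Psmd10, had no ARE core in this window. With a core in only 10.2% of all promoters, absence in so few genes, chosen by their calls here, cannot tell them from other genes. The search also says nothing of whether the factors bind elsewhere. An ISRE core stood in 3 of the 41 promoters (7.32%), those of Psmb3, Psmd4 and Psmd9, and a GAS match in those of Psmb8 and Psmg1.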

How the data were processed

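Poly(A) RNA of 6 BV2 libraries was sequenced after NEBNext Ultra preparation, a kit that does not mark strand, per the labels' protocols. The tools bcl2fastq (2.17), HISAT2 (2.1.0), SAMtools (1.9) and featureCounts (2.0.0) are listed, with the build GRCm39, per the submitters' processing notes; settings for strand and multi-mapping reads are not stated there. The authors deposited raw counts per gene, and a table of log2 values that equals the log2 of counts scaled to a common total plus 8, as checked on the files. That table thus has the same scaling as library totals, and results with these alternatives are not independent of each other.

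Counts were filtered with filterByExpr, scaled by TMM and tested with edgeR 4.0.16 (quasi-likelihood, Benjamini-Hochberg over 13403 genes, called at an adjusted p below 0.05) in R 4.3.3. Fold changes are labelled Tfam knockout over WT. The SE of a log2 fold change was derived from its size and edgeR's F statistic, as the test itself gives none. Levels are TMM-scaled CPM, divided by the length of GENCODE M21 principal transcripts where given per kb. Ratios used a pseudocount of 1 and exact permutation tests. Alternatives were DESeq2 1.42.0, limma-voom 3.58.1, other scalings and filters, a replicate block, the deposited log2 values, length and GC offsets, and each library left out. The main edgeR fit alone was tested on simulated data, in which 200 genes changed, far fewer than were called here. Every simulated gene had the same dispersion (spread between replicates), so the shares recovered need not hold for the proteasome genes. The fit recovered 12% of 1.25-fold, 76% of 1.5-fold and 100% of 2-fold changes, and 4.64% of its calls were false. A gene that was not called may therefore still differ by a small amount. Near-identical copies were sought with BLAST. Promoters on chromosome 18 were left out of the motif search. The members and lists were chosen with earlier results of these data known. All members may be named; from each list of partners up to 4 called genes with the largest change were named, plus Pomp, Nfe2l1, Nfe2l2, Irf1, Nlrc5 and Tap1 whatever their values; some genes of these lists are not reported here.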

Additional observations from a re-analysis of the deposited data

How the results depend on the processing

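Over 15 alternatives, 10 of the 21 calls were always made. Of the other 11, 10 were lost in at least one fit that left out a library, which leaves fewer libraries to estimate the spread, and Psmb6 with the offsets alone. Members called lower numbered 2 with library totals and 2 with the authors' log2 table (17.7% and 18% of all genes). Members called higher numbered 23 with length and GC offsets (25.3% of all genes). In the 20S core 2 were lower with library totals and with the authors' log2 table, and 5 higher with the offsets. No immunoproteasome gene was lower with library totals, the authors' log2 table or the offsets (0 each), and no 19S cap gene with library totals, no filter, the replicate block or the authors' log2 table (0 each). Psmg genes called higher numbered 1 with library totals, 1 with the authors' log2 table and 3 with the offsets. The cause was not tested.

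Leaving out each library in turn gave 10 to 15 members higher and 2 to 6 lower, 2 to 3 and 2 to 5 in the 20S core, 2 to 2 and 0 to 1 in the immunoproteasome, 3 to 6 and 0 to 1 in the 19S cap and 0 in Psmg genes. Over all genes 2353 to 2843 were higher and 2488 to 2978 lower. Log2 ratios differed by 0.46 to 0.61 for Psmb8 to Psmb5, 0.08 to 0.24 for Psmb9 to Psmb6 and 0.72 to 0.78 for Psme2 to Psme1.

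Some values near 0 that were not called changed sign; of them Psmb3 and Psmb5 gained a call, with the offsets. With library totals these were Psmb1 (0.029), Psmb3 (0.097), Psmb5 (0.087), Psmc4 (0.069) and Psmg4 (0.011), and with the authors' log2 table Psmb1 (0.025), Psmb3 (0.092), Psmb5 (0.079), Psmc4 (0.067) and Psmg4 (0.011). With the offsets they were Psmb3 (0.20), Psmb5 (0.23), Psmc4 (0.061), Psmd4 (0.028) and Psmg4 (0.22), and with no filter Psmb3 (0.0035). Left-out libraries moved Psmb3 between -0.077 and 0.086, Psmb4 between -0.054 and 0.0999, Psmb5 between -0.11 and 0.092, Psmc4 between -0.091 and 0.038, Psmc5 between -0.019 and 0.13, Psmd3 between -0.022 and 0.11, Psmd8 between -0.014 and 0.066 and Psmg4 between -0.24 and 0.026.

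Same-numbered libraries did not deviate together (correlations of -0.10, -0.11 and 0.04 across genes), so the numbers were not taken as pairs. With the replicate block 11 members were higher and 4 lower, and over all genes 2501 and 2754 (39.2% called); the calls of Psma1, Psmc6, Psmd9, Psmd11, Psmd12, Psme3 and Nfe2l2 were not made in that fit. Depth limits Psmg3, which had at most 23 counts in a library.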
